A study of Sus scrofa with 44 samples.

Results

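The creatine kinase genes CKM, CKB and CKMT2 were followed through fetal development of pig skeletal muscle. They are 3 of the 22427 genes in the expression files and were chosen by gene symbol (ENSSSCG00000036132, ENSSSCG00000021220 and ENSSSCG00000014128 in that order). The choice was made with their measured levels known, because the TPM values of CKM and CKB over the stages selected them. Their levels and the ratio of CKM to CKB are therefore given as a description, with no test. TPM is a level corrected for transcript length and for the total of a library.

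Creatine kinase moves a phosphate group between ATP and creatine, and so buffers ATP where it is used quickly. CKM encodes the muscle subunit, which pairs with itself in mature fibres and binds the M-band of the sarcomere. CKB encodes the brain-type subunit, which is found in many tissues and in muscle precursors. CKMT2 encodes the sarcomeric mitochondrial form, which works beside the exporter of ATP between the mitochondrial membranes. A change from the brain-type to the muscle subunit is a long-known part of muscle differentiation.

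The muscle was longissimus dorsi of pig fetuses at 6 ages, E33, E40, E50, E60, E70 and E95, where the number is the day after mating (post coitus). Each stage had 3 input libraries of rRNA-depleted RNA, each with an immunoprecipitate made with an antibody to m6A, a methyl mark on adenosines in RNA. The same assay was run on PK15, a pig kidney cell line labelled as adult, with 2 input and 2 m6A libraries from polyA RNA and 2 of each from rRNA-depleted RNA. Levels came from the 18 muscle input libraries, and sites of m6A enrichment (peaks) from 8 deposited lists, 1 for each stage and 1 for each kind of PK15 RNA. The labels give no breed, sex or litter, and nothing says whether libraries of a stage came from different fetuses. Any spread between them may thus be partly technical. In such bulk samples, fewer cells of a type and less RNA per cell cannot be told apart.

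A library had 8691 to 13912 genes at 1 TPM or more. A single gene without a symbol, ENSSSCG00000032395, took 37.4% to 72.4% of all TPM, so every other value depends on its share. E40 replicate 2 and E50 replicate 3 stood apart: all genes but the most abundant pair held 17.2% and 13.2% of their TPM, against a median of 41.0% over the libraries. Values are therefore also given after median-ratio scaling, which sets the median gene level with itself across libraries. The ratio of 2 genes within a library does not depend on that scaling. The skeletal muscle markers were present throughout: the sum of the 10 of 12 that were matched lay between 3602 and 22356 TPM over all libraries. Of the cardiac markers, TNNT2 (stage means of 58.7 to 537 TPM) and MYH6 (93.8 to 424 TPM) were abundant, and NPPB was listed at 0 in every library.

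The 3 genes are related in sequence but lie apart in the genome. In RefSeq (Sscrofa11.1), CKM lies on chromosome 6 from 51704021 to 51716935 on the minus strand. CKMT2 lies on chromosome 2 from 89796470 to 89830293 on the plus strand, and CKB lies on an unplaced scaffold from 2070843 to 2074141 on the minus strand. The coding sequences of CKM and CKB are both 1146 bases long and are identical at 77.8% of aligned bases, and their longest identical run is 26 bases. CKM and CKMT2 are identical at 68.2% of aligned bases, with a longest run of 18. CKB and CKMT2 share 69.4%, with a longest run of 29.

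The sequence around each start codon is shown because it is where a CKM peak ended in the oldest muscle. Each line runs 5′ to 3′ on the spliced RefSeq transcript with the start codon in capitals. The CKM window is chr6:51712411-51712440 on the minus strand, which is one block of that peak. The CKB window covers 2073755 to 2073784 of its scaffold on the minus strand, and the CKMT2 window is chr2:89814141-89814160 on the plus strand, shorter because the transcript begins there.
CKM: gccccccacgccgccaccATGccgttcggt
CKB: gccgccgccgccgccgccATGcccttctcc
CKMT2: gaggaaggATGgccagcacc

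CKM, the muscle subunit, was low at E33 and high at E70 and E95. Its level was 6.14, 12.7 and 15.0 TPM in the 3 E33 libraries, and 149, 43.6 and 143 TPM at E40. At E50 it was 261, 255 and 86.5 TPM, and at E60 it was 338, 506 and 562 TPM. Every library from E40 on was above every E33 library, and the low values at E40 and E50 belong to the libraries that stood apart. At E70 the level was 677, 746 and 777 TPM, and at E95 it was 623, 775 and 767 TPM. Among all 22427 genes, CKM ranked 5778 by mean TPM at E33, 343 at E40, 84 at E70 and 76 at E95.

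Ordered by mean TPM, CKM was highest at E70 (733 ± 51.3, SD, n = 3) and E95 (722 ± 85.4), whose libraries overlapped. E60 followed (469 ± 116), then E50 (201 ± 99.3) and E40 (112 ± 59.1), whose libraries overlapped each other, then E33 (11.3 ± 4.6). After median-ratio scaling, the order followed age. Scaled means were 6.50 ± 1.42 TPM for E33, 97.9 ± 8.36 for E40 and 256 ± 43.6 for E50. They were 369 ± 73.6 TPM for E60, 732 ± 58.5 for E70 and 1075 ± 255 for E95. Here the libraries of neighbouring stages overlapped only between E50 and E60. The mean at E95 was 64.0 times that at E33 as deposited and 166 times after scaling. The largest step between neighbouring stages, on either scale, was from E33 to E40: 9.90 times as deposited and 15.1 times after scaling. Between E70 and E95 the scales differed, with a fold of 0.98 as deposited and 1.47 after scaling.

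CKB, the brain-type subunit, was abundant in the youngest muscle and scarce in the oldest. Its level was 215, 286 and 350 TPM in the E33 libraries, when it ranked 240 of all genes, and 186, 65.7 and 177 TPM at E40. It was 165, 135 and 50.8 TPM at E50 and 91.3, 201 and 189 TPM at E60. The libraries of E40, E50 and E60 overlapped one another. At E70 the level was 63.5, 78.7 and 73.5 TPM. At E95 it was 7.61, 4.13 and 3.01 TPM, below every library of the other stages, and its rank was 5752.

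On the log scale, most of the difference in CKB lay between the last stages. In TPM as deposited the largest step was from E33 (284 ± 67.3, SD, n = 3) to E40 (143 ± 66.9), against 71.9 ± 7.72 at E70 and 4.92 ± 2.40 at E95. After scaling, the mean was 170 ± 23.4 TPM at E33 (SD, n = 3), 130 ± 13.7 at E40, 150 ± 36.1 at E50 and 126 ± 42.0 at E60. Neighbours in the order of these means overlapped, though every E33 library (143 to 186 TPM) was above every E40 library (115 to 141 TPM). The scaled mean of CKB was 71.6 ± 4.80 TPM at E70 and 7.54 ± 4.18 at E95, each apart from the stage above it. The scaled mean at E70 was 9.49 times that at E95. As deposited, the mean at E33 was 57.7 times that at E95, and after scaling 22.5 times.

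CKMT2, the mitochondrial form, was low at every stage and did not reach the level of either cytosolic form in any mean. It was at 0.616, 0.271 and 0.554 TPM at E33 and at 3.05, 0.496 and 2.81 TPM at E40. At E95 it was at 2.32, 2.73 and 4.06 TPM. Between those stages it ranged from 0.75 TPM in an E50 library to 3.13 TPM in an E60 library. From E40 to E95 the libraries of stages next to each other in level overlapped, and E33 alone stood below the next stage by mean, E50. E33 and E40 overlapped as deposited, since E40 replicate 2 (0.496 TPM) was below E33 replicates 1 and 3. After scaling, E95 (4.38 ± 0.67 TPM, SD, n = 3) was also apart from the next stage, E50 (2.41 ± 0.48), and E33 was lowest (0.32 ± 0.19). The files used here hold no read counts, so the counting error at such low levels could not be computed.

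**Figure D1:**
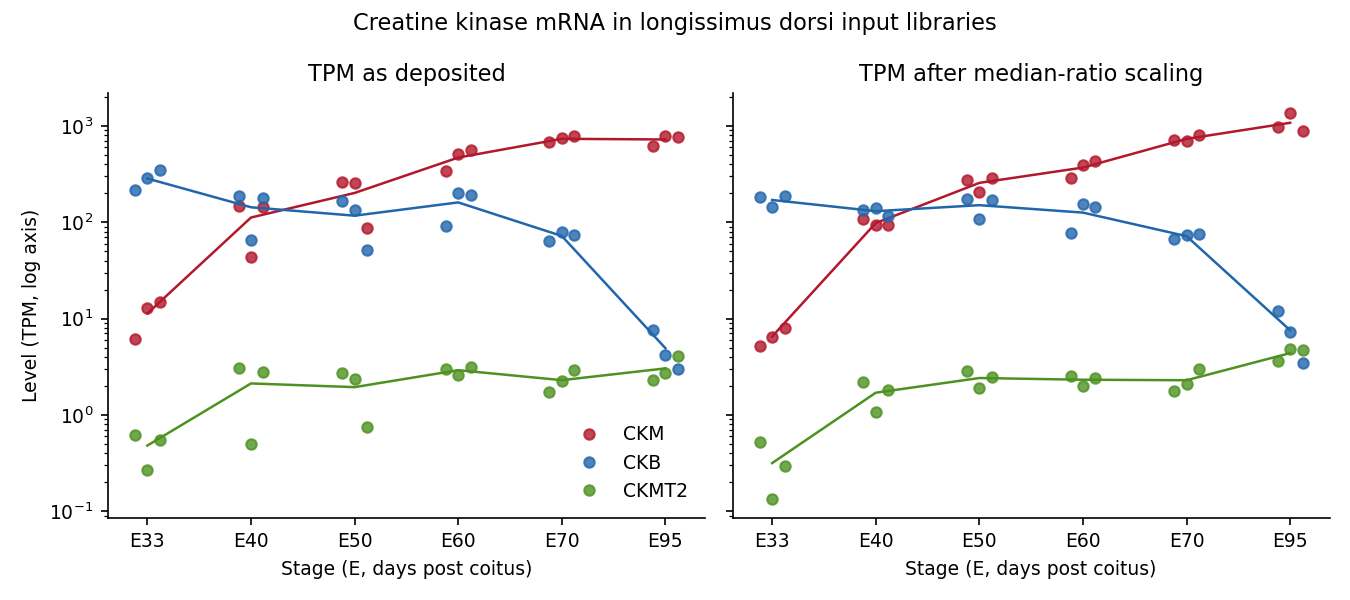
TPM of CKM (red), CKB (blue) and CKMT2 (green) in each of the 18 input libraries by stage, on a log axis, as deposited (left) and after median-ratio scaling (right). Points are libraries and lines join stage means; the mean of CKM went from 11.3 to 722 TPM and that of CKB from 284 to 4.92 TPM between E33 and E95 as deposited.

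The exchange between CKM and CKB was clearest in their ratio within each library. At E33, CKB exceeded CKM 35.1, 22.5 and 23.3 times in the 3 libraries. At E40 CKB was still the higher, by 1.25, 1.51 and 1.24 times. From E50 on CKM was the higher in every library, by 1.58, 1.90 and 1.70 times at E50. The ratio of CKM to CKB was 3.70, 2.52 and 2.97 at E60 and 10.7, 9.47 and 10.6 at E70. At E95 it was 81.9, 188 and 255. The crossing from more CKB to more CKM thus lay between E40 and E50, unless the level of ENSSSCG00000036235, a gene with a peak in CKM's last exon, is added to CKM.

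On the log2 scale the mean ratio was -4.72 ± 0.36 for E33 (SD, n = 3), -0.41 ± 0.16 for E40 and 0.78 ± 0.13 for E50. It was 1.60 ± 0.28 for E60, 3.35 ± 0.10 for E70 and 7.30 ± 0.85 for E95. No library of one stage overlapped another stage. The libraries that stood apart in level did not stand apart here: E40 replicate 2 was at -0.59 and E50 replicate 3 was at 0.77. The steps were uneven. The mean log2 ratio moved by 4.32 ± 0.23 (SE) from E33 to E40, by 1.19 ± 0.12 to E50, by 0.81 ± 0.18 to E60, by 1.76 ± 0.17 to E70 and by 3.95 ± 0.49 to E95. In the first step most of the movement was in CKM, and in the last most was in CKB. After scaling, the log2 difference of CKM was 3.74 ± 0.17 (SE) from E33 to E40, and that of CKB was -0.38 ± 0.15. From E70 to E95 the scaled log2 difference was 0.53 ± 0.20 for CKM and -3.21 ± 0.44 for CKB.

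Expressed as a share of the TPM of the 3 genes, CKM made up 3.71% ± 0.82 (SD, n = 3) in E33 muscle, 42.7% ± 2.59 in E40 and 62.9% ± 2.11 in E50 muscle. The share was 74.7% ± 3.42 at E60, then 90.8% ± 0.54 and 98.9% ± 0.39 in the oldest stages. CKB went from 96.1% ± 0.73 at E33 to 0.71% ± 0.43 at E95. CKMT2 stayed under 1% in every library, from 0.09% to 0.90%. At E95 the mean levels of CKB and CKMT2 lay close together, 4.92 ± 2.40 and 3.04 ± 0.91 TPM, and their libraries overlapped.

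**Figure D2:**
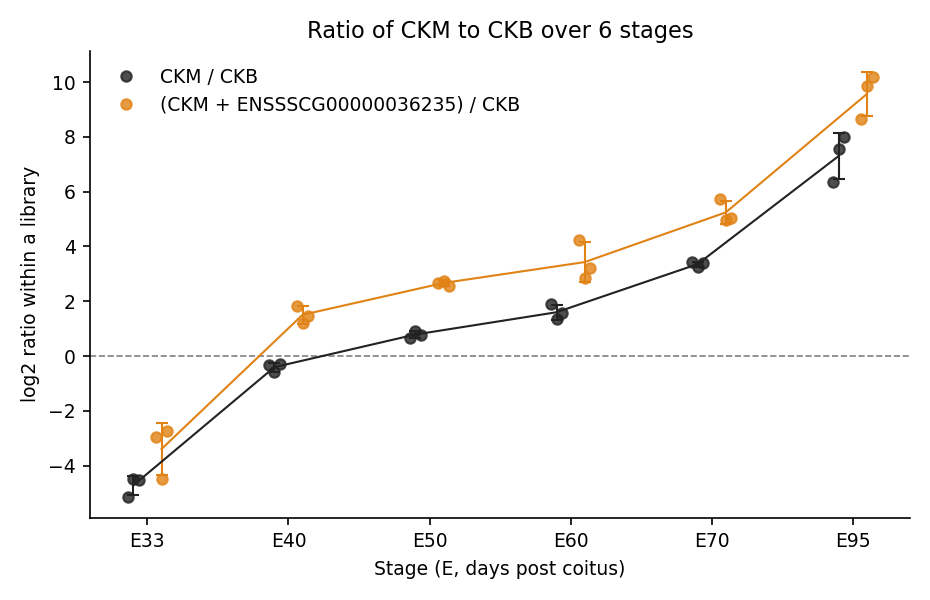
log2 of the ratio of CKM to CKB within each library by stage (black), and the same with the level of ENSSSCG00000036235 added to CKM (orange). Points are libraries, lines join means and bars are SD (n = 3); the dashed line marks equal levels, which the black means cross between E40 (-0.41) and E50 (0.78).

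ENSSSCG00000036235, a gene without a symbol, had a peak named for it on the plus strand, within the last exon of CKM. That peak is the only position of this gene in the sources used here, and the name of a peak does not place its gene. Its TPM followed that of CKM, with Pearson's r of 0.95 over the 18 libraries after scaling, as a description over libraries that share the stages. It was 1.84 to 4.10 times the level of CKM in 17 libraries and was listed at 0 in E33 replicate 2. At E95 it was at 2441, 3085 and 2706 TPM. Neither its exons nor the use of strand in counting is given in the sources used here, and whether it and CKM share reads was not tested. With both summed, the log2 ratio to CKB was -3.40 ± 0.96 at E33 (SD, n = 3), 1.50 ± 0.32 for E40 and 9.56 ± 0.80 at E95. The sum exceeded CKB at E40 in every library, so the crossing then fell between E33 and E40.

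MARK4, a kinase of microtubule-associated proteins, is the next gene toward the 3′ end of CKM, on the plus strand from 51665923 to 51700553. RefSeq leaves 3467 bases between the facing ends of these genes. MARK4 was at 20.1, 31.5 and 36.3 TPM at E33, above CKM in each of those libraries, and at 5.74, 4.02 and 7.45 TPM at E95, far below it. Most peaks named CKM lay in MARK4.

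The lists named 8 peaks CKM, in 7 of the 8 lists, and none CKB or CKMT2. Of these 8, 7 lay wholly within the 3′ UTR of MARK4 in RefSeq, outside the CKM gene. Each of the 7 overlapped a peak named MARK4 on the opposite strand of the same list. Of all minus-strand peaks, 4.2% (E40) to 9.4% (PK15 polyA RNA) overlapped a plus-strand peak of their list. Folds below are the authors' own enrichment of immunoprecipitate over input for each peak. At E33 the CKM-named peak was chr6:51699763-51700002 with a fold of 4.32, and the MARK4-named peak beside it had 4.27. The E60 peaks had folds of 3.68 and 3.74, the E70 peaks both had 5.02, and those of PK15 polyA RNA had 7.88 and 7.07. By both names these folds were close, and both strands of the site were reported in 6 of the 8 lists.

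The bases that those lists shared carry the motif GGAC, one of the forms of the m6A consensus. The site is shown with the motif in capitals, on the MARK4 strand, at chr6:51699847-51699876 in the last exon of MARK4. On the other strand, on which these peaks were named CKM, GGAC occurs elsewhere in each of the 6 peaks at this site, 1 to 3 times.
MARK4 site: gaggagactgcagGGACggggcagaaaggg
A second CKM-named peak at E50, chr6:51700451-51700511, had a fold of 12.4 and also held the motif on the MARK4 strand, at chr6:51700471-51700500.
MARK4 second site: cacatgttatacgGGACtctaagccacttc
The motif is common in such windows. In the E33 list, 76.9% of the 3638 peaks at least as long as this one held GGAC on their own strand within central windows of 240 bases, and 87.9% held it on either strand. In the E50 list, 38.9% of 6866 windows of 61 bases held it on their own strand. A match is only a description of the letters.

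In the exons of CKM itself, peaks were listed at E95 alone. The E95 peak named CKM spanned 2 blocks, chr6:51714762-51714882 and chr6:51712411-51712440, on the minus strand. The first block covers exon 1, which is 5′ UTR, and runs past the start of the curated RefSeq transcript. The second is the first 30 bases of exon 2, 12 of them coding, and is the CKM sequence printed above with its start codon. The join between blocks fell exactly on the RefSeq exon edges. The authors' deposited table gives it a fold of 2.03 and p = 3.2e-82, and the fold was at percentile 3.8 of that list, whose median fold was 4.42. GGAC was not among the 151 letters on the CKM strand and was found at 2 places on the other strand. Among 5469 E95 peaks at least as long, 63.3% held it on their own strand in windows of that length and 76.0% on either strand.

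The other E95 peak, named ENSSSCG00000036235 on the plus strand, was chr6:51704370-51704537, and 160 of its 168 bases lie in the coding part of the last CKM exon. The authors' deposited table gives it a fold of 1.73 and p = 1e-128, at percentile 1.2 of the list. Its part within the exon holds GGAC once on the strand of the peak and once on the CKM strand; the latter is shown at chr6:51704500-51704529.
CKM last exon: gtggcgtGGACacagccgctgtgggctcag
In 65.0% of 4990 E95 windows of 160 bases the motif was present on the peak's own strand, and in 77.5% on either strand. Both E95 peaks had folds near the bottom of their list, at a stage where CKM averaged 722 TPM. Other lists had no peak in a CKM exon, including E70, where CKM averaged 733 TPM.

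CKB had no peak in any list, neither by name nor by overlap with its exons, although it averaged 284 TPM at E33. Of the 627 genes averaging 100 TPM or more at E33, 59.3% had a named peak in the E33 list. CKB was also among such genes at E40, E50 and E60. There the shares were 40.4% of 381 genes, 44.55% of 321 and 54.8% of 471. CKMT2 had none by name or by overlap either, at stage means of 0.48 to 3.04 TPM. An unlisted peak is not evidence of unmethylated RNA, since the lists hold only what their caller passed. The scaffold with CKB has another name in the lists than in RefSeq. It was matched to the name under which most peaks of its genes lay at or near their RefSeq positions, 218 of 220. That count chose the match and is no separate check of it, and the search by overlap with CKB exons rests on it.

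**Figure D3:**
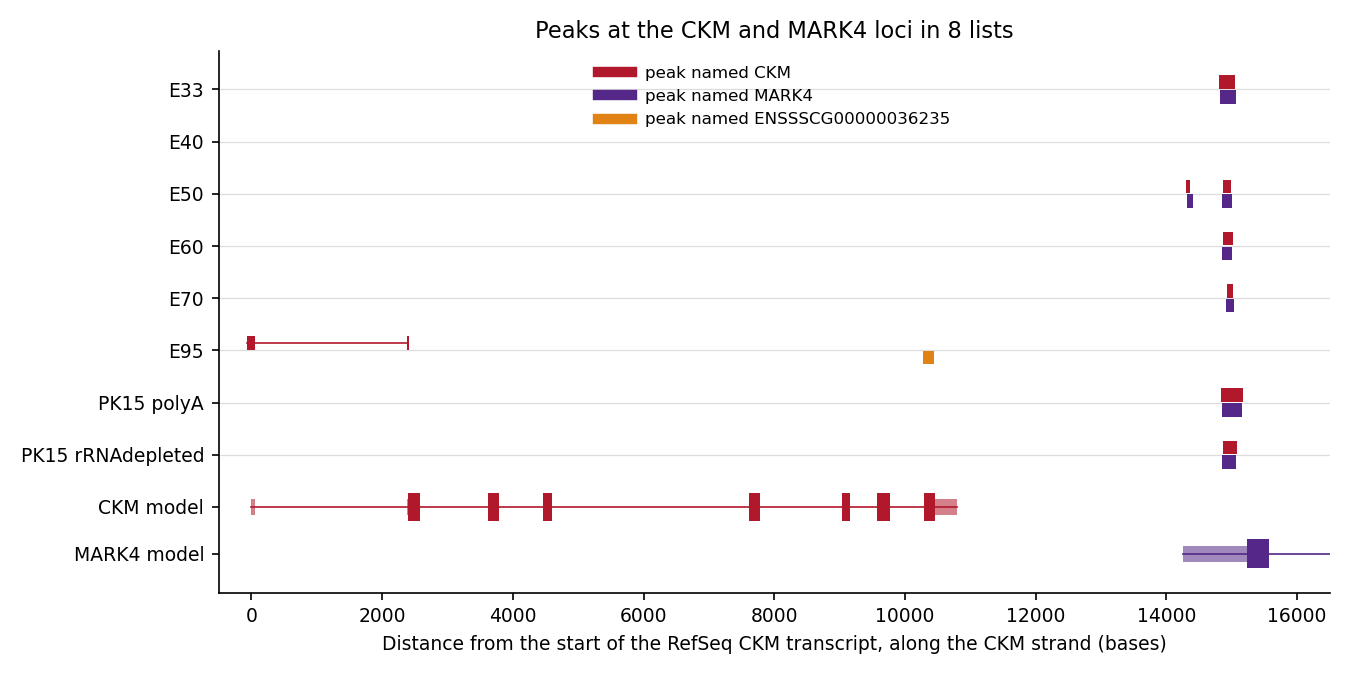
Peaks named CKM (red), MARK4 (purple) and ENSSSCG00000036235 (orange) in each of the 8 lists, by distance in bases from the start of the curated CKM transcript, with RefSeq exons below (tall, coding; short, UTR). 7 of the 8 CKM-named peaks sit over the MARK4 3′ UTR at the right, and the E95 list alone has peaks over CKM exons.

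The genes around creatine kinase were taken from 5 lists: creatine supply, mitochondrial ATP exchange with adenylate kinases, the purine nucleotide cycle, AMPK subunits, and the structures to which CKM binds. The lists were written with earlier results of these data known, so their counts beside those of all genes are a description. Of 38 genes, 31 were matched to the files and 27 passed a minimum mean of 1 TPM. They were tested with limma on log2(TPM + 1) over all 18 libraries, with Benjamini-Hochberg adjustment over 13334 genes and calls at an adjusted p under 0.05. As deposited, 8 of the 27 rose and 2 fell from E33 to E95. Of all genes tested, 2.64% rose and 45.8% fell, and the median log2 difference of all genes was -1.02 against 0.10 for the list. After scaling, 23 rose and none fell, against 23.7% and 23.1% of all genes, with a median of 1.32 for the list and 0.00 for all genes. All 8 that rose as deposited also rose after scaling. With E33 replicate 2, E33 replicate 3 or E95 replicate 1 left out, 6 of the 10 calls made as deposited were left: SLC25A4, AK1, AMPD1, PRKAG3, MYOM2 and ATP2A1.

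Of the 7 genes tested for mitochondrial ATP exchange and adenylate kinases, 2 rose and 1 fell from E33 to E95 as deposited, and 6 rose and none fell after scaling. SLC25A4, the muscle form of the mitochondrial ADP/ATP carrier, was at 19.4, 33.4 and 26.1 TPM at E33, at 107, 91.3 and 108 TPM at E70, and at 197, 248 and 256 TPM at E95. All E95 libraries were above all others. From E33 to E95 it rose by 3.13 ± 0.52 on the log2 scale (SE; as deposited, limma adjusted p = 0.00016), and by 4.37 ± 0.18 with scaling. SLC25A5, another ADP/ATP carrier, went the other way as deposited, from 22.2 ± 2.29 to 7.52 ± 2.49 TPM (SD, n = 3), and fell by 1.49 on the log2 scale (limma adjusted p = 0.027). After scaling its log2 difference was -0.30 and was not called (limma adjusted p = 0.60), and its deposited call was lost without E33 replicate 2, E33 replicate 3, E95 replicate 1 or E95 replicate 3 (limma adjusted p of 0.054 to 0.092). AK1, the cytosolic adenylate kinase, rose by 1.88 on the log2 scale as deposited and by 3.11 after scaling.

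Creatine supply was less clear. SLC6A8, the creatine transporter, was at 18.3, 26.0 and 24.9 TPM at E33 and at 21.2, 30.3 and 40.2 TPM at E95, with overlapping libraries. As deposited, its log2 difference was 0.36 ± 0.46 (SE) and was not called (limma adjusted p = 0.50). With scaling it rose by 1.59 ± 0.15 (limma adjusted p = 6.4e-07). GATM, which makes the creatine precursor, was called on neither scale, and GAMT, which completes creatine, averaged under 1 TPM. The other mitochondrial creatine kinase genes were not analysed here.

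In the purine nucleotide cycle, the muscle AMP deaminase AMPD1 and the widespread form AMPD2 moved apart. AMPD1 rose from 4.30 ± 1.21 to 27.0 ± 8.66 TPM (SD, n = 3) from E33 to E95, a log2 difference of 2.39 as deposited. AMPD2 was at 38.9, 33.4 and 39.0 TPM at E70 and at 10.5, 10.1 and 12.8 TPM at E95. It fell from E33 to E95 as deposited (log2 difference -1.44 ± 0.49, SE; limma adjusted p = 0.023), but after scaling its log2 difference was -0.22 ± 0.14 and was not called (limma adjusted p = 0.20).

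Among AMPK subunits, which sense the AMP that creatine kinase and adenylate kinase help to set, 3 of 7 rose as deposited and 7 of 7 after scaling. PRKAG3, a gamma subunit known from glycolytic muscle, was at 0.24, 0.0029 and 0.0020 TPM at E33 and at 5.03, 4.86 and 7.38 TPM at E95. Its log2 difference was 2.63 ± 0.38 (SE) as deposited. As deposited, PRKAG2 rose by 1.04 ± 0.41 (SE; limma adjusted p = 0.042) and PRKAA2, a catalytic subunit, by 1.38 ± 0.50 (limma adjusted p = 0.030). Neither was called in every fit with 1 library left out. PRKAG2 was at 5.92, 4.64 and 13.1 TPM in the E95 libraries. Of the sites of CKM action, MYOM2, an M-band protein, rose by 2.38 ± 0.50 (SE), and ATP2A1, the calcium pump of fast fibres, by 2.21 ± 0.47. MYOM1, MYOM3 and ATP2A2 were not called as deposited and rose after scaling.

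From E70 to E95, when CKB had its largest step on the log scale, no list gene was called as deposited by limma, with 3 at an unadjusted p under 0.05. Of all genes, 0.0750% rose and 0.210% fell. After scaling, 14 of 27 rose and 1 fell, against 6.84% and 6.73% of all genes, and the list's median log2 difference was 0.55. SLC25A4 (1.74 ± 0.18, SE), PRKAG2 (1.52 ± 0.16) and ATP2A1 (1.33 ± 0.14) gave the largest scaled log2 rises. AMPD2 was the gene that fell, by 1.13 on the log2 scale. Without E95 replicate 2, 9 of these scaled calls were made in place of 15. As deposited, AMPD2 was called once E50 replicate 3 was left out, and 5 list genes once both libraries that stood apart were left out. The E33 to E95 and the E70 to E95 comparisons share the E95 libraries.

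**Figure D4:**
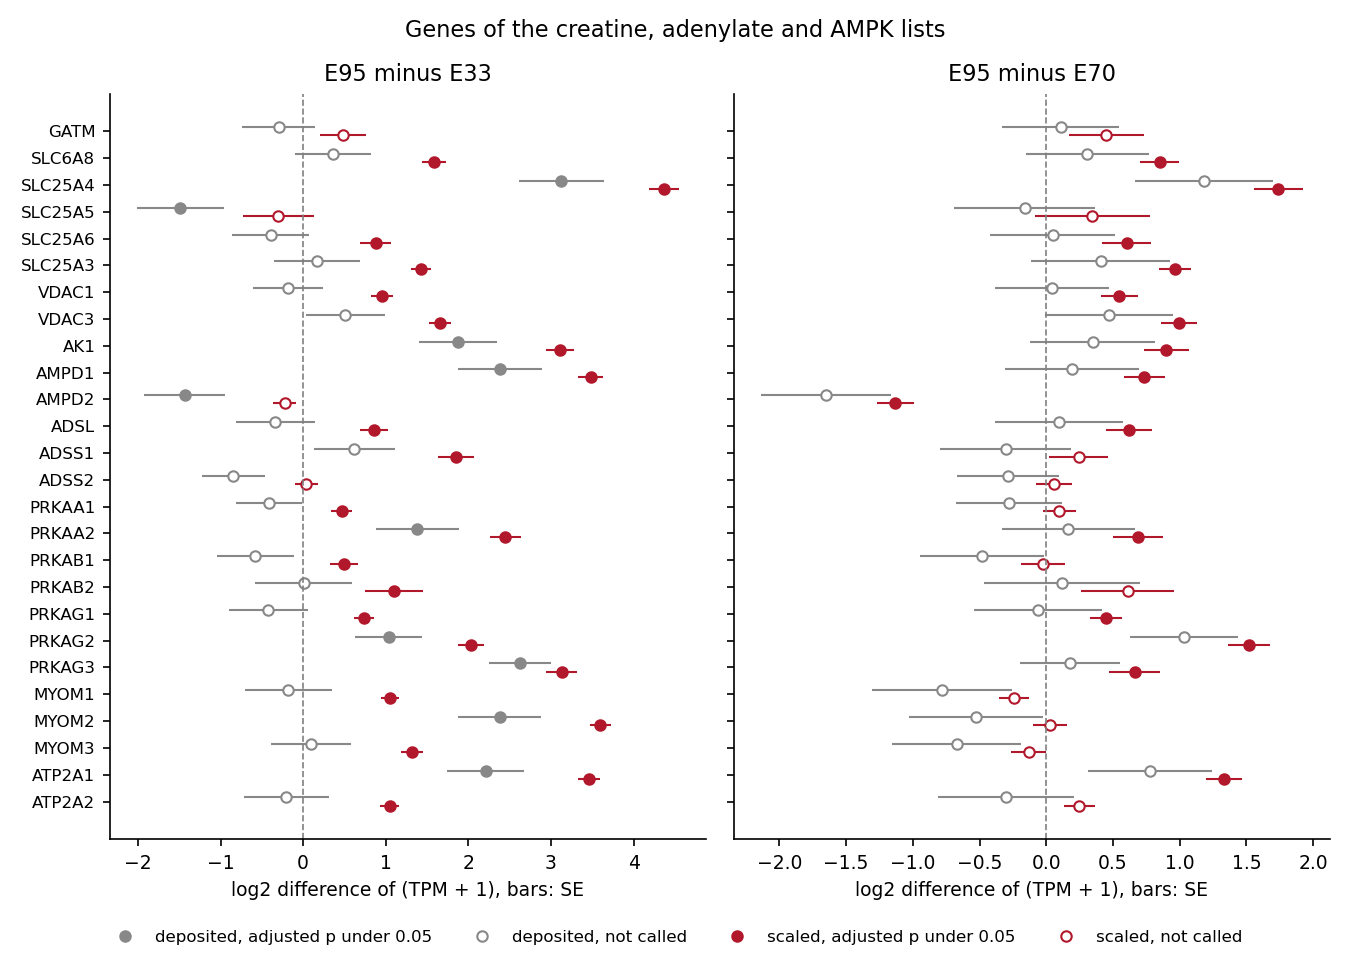
log2 differences of (TPM + 1) with SE for 26 of the 27 list genes tested, E95 minus E33 (left) and E95 minus E70 (right), as deposited (grey) and after scaling (red), filled where limma's adjusted p was under 0.05. Every scaled point lies to the right of the deposited one, and the median of all genes was -1.02 (left) and -0.41 (right) as deposited and 0.00 after scaling.

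Of the 27 list genes tested, 22.2% (6) had a peak named for them at E33 and 40.7% (11) at E95, against 34.8% and 33.7% of all 13334 genes tested. The difference between these shares was not tested. ADSS1 and ATP2A1 had a peak in all 6 stage lists, and AK1 in all but E33. SLC25A4, AMPD1, AMPD2, PRKAG3, GATM, VDAC3, ADSL and PRKAG1 had none in any list, as with CKB and CKMT2. How common this is among all genes was not tested.

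Other muscle enzymes paired with another isoform were set beside CKM and CKB, as values only. Of 12 pairs, 10 were measured on both sides. The mean log2 ratio of muscle to other isoform was higher at E95 than at E33 in all 10, and the pairs were chosen for being muscle forms. None moved as far as CKM over CKB, whose difference was 12.02 ± 0.53 (SE). CKM and CKB were selected by their levels over the stages, so their place above the other pairs is not a test. Next came ALDOA over ALDOC, the aldolases, with 7.85 ± 0.69, then PYGM over PYGB, the glycogen phosphorylases, with 6.24 ± 0.35. No pseudocount was used, and the sizes of both depend on low levels of the other isoform. ALDOC averaged 18.9 TPM at E33 and 1.16 ± 0.68 at E95 (SD, n = 3), and PYGB 3.10 and 0.19 ± 0.07. ENO3 over ENO1, the enolases, moved by 5.75 ± 0.16, and AMPD1 over AMPD2 by 4.16 ± 0.18. PFKM over PFKP, the phosphofructokinases, moved least, by 0.75 ± 0.27.

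Of the 10 pairs, 6 had mean ratios both below and above equality over the stages. The mean was above it at every stage for PYGM over PYGB, PFKM over PFKP and ALDOA over ALDOC, and below it at every stage for HK2 over HK1. ENO3 was below ENO1 until E50 (log2 ratio -0.37 ± 0.18, SD, n = 3) and above it from E60 (0.31 ± 0.25). PGAM2 passed PGAM1, the phosphoglycerate mutases, between E40 (-0.35 ± 0.13) and E50 (0.67 ± 0.51), the same interval as for CKM and CKB. AMPD1 passed AMPD2 only between E70 (-0.70 ± 0.24) and E95 (1.24 ± 0.28). For ATP2A1 over ATP2A2 the course was not one-way: -0.45 ± 0.11 at E33, -1.82 ± 0.06 at E40 and 1.99 ± 0.04 at E95. HK2 over HK1, the hexokinases, followed a like course and was still at -0.11 ± 0.14 at E95.

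**Figure D5:**
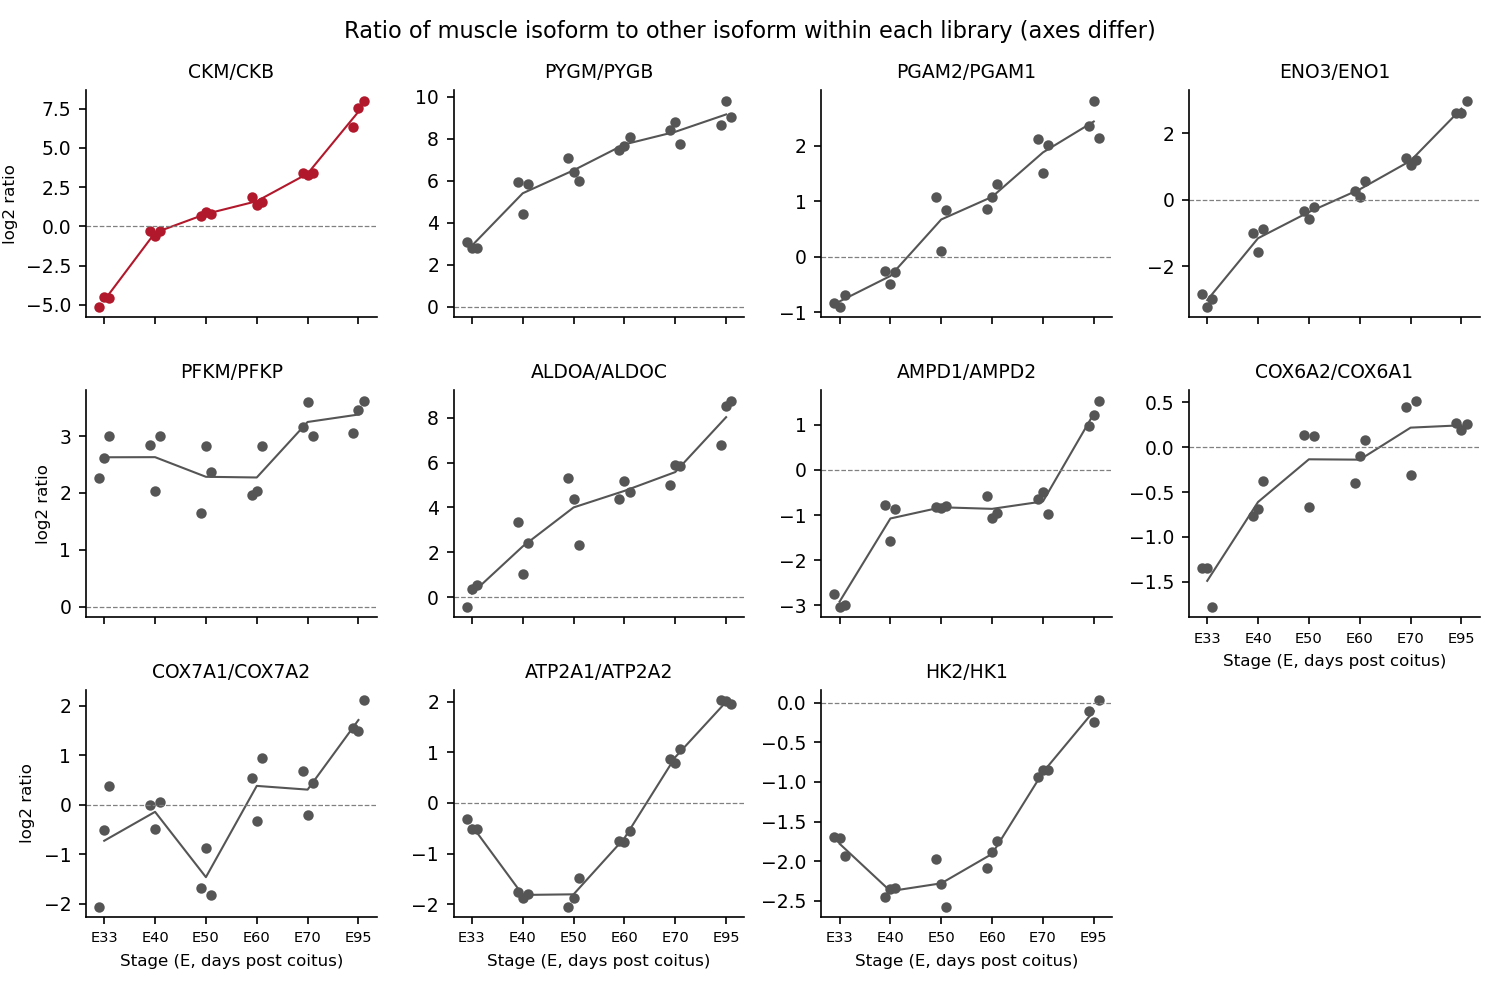
log2 ratio of the muscle isoform to the other isoform within each library, by stage, for CKM/CKB (red) and 10 other pairs (grey). Points are libraries and lines join means; vertical axes differ between panels, and the dashed line marks equal levels. CKM/CKB spans 12.02 between its E33 and E95 means, and PFKM/PFKP spans 0.75.

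The genes whose pattern was most like CKM, by Pearson's r over the 18 libraries on scaled log2 values, were TNNT3 (0.997), TNNI2 (0.995), MYOM2 (0.994), MYL1 (0.991) and KDR (0.991). TNNT3 and TNNI2 encode troponins of fast fibres, MYL1 a myosin light chain and KDR a receptor for vascular endothelial growth factor. Similar patterns came with unlike sizes. The scaled mean of KDR was 7.17 TPM at E33 and 26.1 at E95, and that of TNNI2 was 175 and 6925. As deposited, the r of KDR with CKM was 0.662, and KDR was at 12.4 ± 4.55 and 17.9 ± 3.21 TPM (SD, n = 3) at these stages.

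Among the genes most like CKB were CSDC2 (0.978), SPART (0.970), JPT1 (0.969) and COL27A1 (0.964). JPT1 was at 45.4 ± 13.7 TPM at E33, 16.3 ± 1.93 at E70 and 1.59 ± 1.38 at E95 (SD, n = 3). Most like CKMT2 were BEST3 (0.959), AK1 (0.950), MYLK2 (0.945), AMPD1 (0.943) and JPH1 (0.943). AK1 and AMPD1 of the pathway lists thus were among the genes nearest to CKMT2. All points of these correlations share the 6 stages, and likeness was the rule that chose the genes.

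Markers of other cell types were summed per library, in TPM as deposited. The sum of the 9 of 10 neuron markers that were matched was 129 to 269 TPM in the E33 libraries, 13.1 to 33.0 TPM at E40, 3.93 to 17.6 TPM at E70 and 2.81 to 3.75 TPM at E95. NEFL made up most of it, at 181 TPM on average at E33 and 19.3 at E40. This sum was lower at E40 than at E33 in every library. CKB averaged 284 TPM at E33 and 143 at E40 as deposited, but 170 and 130 TPM after scaling. The sum for 7 of 8 glia and Schwann cell markers was 70.4 to 131 TPM at E33, 54.1 to 66.4 at E70 and 23.7 to 56.0 at E95, with FABP7 at 0 in all E95 libraries. The 7 smooth muscle markers summed to 1215 to 1296 TPM at E70 and 1042 to 1258 at E95, most of it DES, which skeletal muscle also expresses. Without DES, the other 6 summed to 242 to 414 TPM at E33, 226 to 248 TPM at E70 and 83.9 to 103 TPM at E95. The E70 and E95 libraries were apart in that sum, also after scaling (230 to 251 TPM and 117 to 181 TPM). CKB had its largest step on the log scale over the same interval. The markers in the sum did not move together. As deposited, the means of ACTA2, CNN1, SMTN, LMOD1 and TAGLN were lower at E95 than at E70. ACTA2 was the largest part, at 99.1 TPM on average at E70 and 32.6 at E95. MYH11 went the other way, from 0.543 TPM on average at E70 to 1.65 at E95. Which cells these transcripts came from was not tested. The 4 of 7 cardiac markers matched summed to 770 to 868 TPM at E70 and 240.3 to 252 at E95, mostly TNNT2 and MYH6. The 7 of 8 erythroid markers summed to 159 to 402 TPM at E70 and 389.8 to 478 at E95. The glia and erythroid sums overlapped between E70 and E95. The part of any of these cell types in the levels of CKB or CKM was not tested.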

How the data were processed

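TPM values per gene were deposited by the authors for 18 muscle input libraries; the quantifier, its annotation and its use of strand are not given in the sources used here. Trimmomatic, HISAT2 and Sscrofa11.1 are named in the submitters' processing notes. The deposited peak lists give a fold (a ratio of immunoprecipitate to input) and a p-value per peak, 1 list per stage or PK15 RNA kind; the peak caller and pooling are not given in the sources used here. Read depth is unknown, so no counting error could be computed. limma 3.58.1 (R 4.3.3) was run on log2(TPM + 1), for genes averaging 1 TPM or more. The fit had 1 mean per stage and 12 residual degrees of freedom. Scaling used median ratios over the 14215 genes above 0 in all libraries. Each stage was 1 group, and the libraries of a number were not treated as pairs: correlations of same-numbered deviations were -0.04 to 0.05. Alternatives were other scalings, a pseudocount of 0.1, no filter, the 6 libraries compared, the replicate block and each library left out. Members and gene lists were chosen with earlier results of these data known. Named were the members, all list genes, the isozyme pairs and the 5 genes with a symbol and a mean of 1 TPM or more whose scaled log2 values had the highest Pearson r with each member over the 18 libraries. Some genes this rule names are not reported here; counts over the lists include them. Gene symbols came from a table of Ensembl IDs, and sequences and positions from RefSeq's Sscrofa11.1 genome. Motifs were searched on both strands in the central bases of peaks. Immunoprecipitate and PK15 libraries were used through the peak lists only.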

Additional observations from a re-analysis of the deposited data

How the results depend on the processing

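The direction of CKM, CKB and CKMT2 from E33 to E95 was the same under every scaling, pseudocount and left-out library tried, while sizes moved. The log2 difference of CKM (5.95 as deposited) was 7.16 with median-ratio scaling, 6.62 rescaled without the 2 most abundant genes and 6.71 with quantile normalization. That of CKB (-5.64) was -4.44 with median-ratio scaling and -4.56 with quantile normalization. That of CKMT2 (1.43) was 2.03, 2.31 and 2.16 under these 3 scalings and 2.45 with a pseudocount of 0.1. Leaving out each library of the 2 stages gave 5.60 to 6.18, -5.95 to -5.39 and 1.26 to 1.56. The log2 ratio of CKM to CKB without 1 library was -4.84 to -4.52 at E33, -0.46 to -0.31 at E40, 0.71 to 0.85 at E50, 1.45 to 1.73 at E60, 3.32 to 3.41 at E70 and 6.95 to 7.77 at E95. With ENSSSCG00000036235 added to CKM, an alternative chosen after seeing the data, it was -3.40, 1.50, 2.67, 3.43, 5.24 and 9.56, so the E40 sign reversed; the added level can only raise a ratio. CKM had a peak in 1 list, not 7, when a RefSeq exon had to be overlapped.

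List genes called from E33 to E95 numbered 10 as deposited, 23 with median-ratio scaling, 19 without the 2 most abundant genes, 23 with quantile normalization and 13 without E40 replicate 2 and E50 replicate 3. Without 1 library they numbered 6 to 12, with 6 when E33 replicate 2, E33 replicate 3 or E95 replicate 1 was left out; AK1, AMPD1, ATP2A1, MYOM2, PRKAG3 and SLC25A4 were called in all 18 of these fits. From E70 to E95, 0 were called as deposited, 15 with median-ratio scaling, 10 without the 2 most abundant genes, 10 with quantile normalization, 4 with only the 6 libraries compared, and 5 without E40 replicate 2 and E50 replicate 3. Without 1 library they numbered 0 to 1, the 1 being AMPD2 without E50 replicate 3. With scaling and 1 library left out, alternatives added after seeing the data, they numbered 21 to 23 (22 without any 1 E33 library) and 9 to 15 (9 without E95 replicate 2, 11 without E70 replicate 1, 13 without E95 replicate 3). The replicate block, though the numbers did not pair the libraries, gave 9 and 0 as deposited, and 23 and 14 with scaling. The share of all genes called is given here only as deposited and with median-ratio scaling. The counts under the other settings thus show how calls depend on processing, and not how the list compares with all genes. From E33 to E95 the median log2 difference of all genes was -1.02 as deposited. It was -0.60 without the 2 most abundant genes and -0.01 with quantile normalization. The cause of the differences in counts between scalings was not tested.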
